A study of Sus scrofa with 180 samples.

Results

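RYR1, TRDN, CASQ2 and ATP2A2, genes of excitation-contraction coupling and of the calcium store of the muscle fibre, were followed in 90 pigs, in Longissimus (LM) and in Semimembranosus (SM). The members were taken by name. Each was matched by 1 probe, so 4 of the 15198 probes on the array represented 4 of the 3481 genes that could be named, and all 4 were among the 10987 probes kept after quality control. One single-colour Agilent array was hybridized for each muscle of each pig, 180 arrays in all. The pigs, females and barrows of half-sib families, descended from crosses of the FH016 (Pietrain type) and FH019 (synthetic) breeding lines. All carried the normal alleles at HAL (the RYR1 locus of malignant hyperthermia) and RN, none was treated, and both muscles were taken minutes after death from every animal at slaughter weight. LM and SM are thus compared within 1 crossbred population, in whole tissue, so fewer cells of a type and less RNA per cell cannot be told apart.

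In skeletal muscle an action potential runs down the transverse tubules, and voltage sensors there open the calcium release channel of the sarcoplasmic reticulum. RYR1 is that channel. Triadin, encoded by TRDN, anchors calsequestrin to the release channel, and calsequestrin holds calcium inside the store. CASQ2 is the cardiac calsequestrin, which slow fibres also make, and ATP2A2 encodes SERCA2, the calcium pump of slow fibres and heart that refills the store. The fast-fibre counterparts CASQ1 and ATP2A1, and CACNA1S, the voltage sensor itself, could not be named on this array and were not analysed here.

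Each member was measured by 1 probe of 60 bases, and its first 30 bases are shown here because every value that follows rests on these 4 sequences. Capitals mark each C among the first 15 bases, the feature used in an index of possible array bias described with TRDN.
RYR1: atgattggtCattgttctttcctctctgac
TRDN: ttgtaCatgatgCtgtggaggaaaccacgg
CASQ2: aCagttgCgtaggaCaacaataattagagt
ATP2A2: ggtgatttCCtCtCtctttccttttcagca
The number of C among those 15 bases was 1 for RYR1, 2 for TRDN, 3 for CASQ2 and 4 for ATP2A2, beside a median of 3 over all probes. The GC content was 45% for RYR1, TRDN and CASQ2 and 41.7% for ATP2A2, and the median over all probes was 45%. Each sequence occurred once on the array. The longest run of bases shared by 2 of these probes, on either strand, was 10 bases, between RYR1 and ATP2A2.

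Values are log2 processed signals from which the median of the array was subtracted, so that 0 is the typical probe of an array. Such levels can be compared between arrays for 1 probe, and not between probes. Each chip (a slide of several arrays) and each scan day held 1 muscle only, so muscle cannot be told apart from chip or scan day. LM was spread over 21 chips and 10 scan days, SM over 14 chips and 5 scan days. In the comparison of LM with SM by limma, 83.5% of all probes tested were called at a Benjamini-Hochberg adjusted p of 0.05 or less, 35.7% higher in LM and 47.7% higher in SM. Gene names came from lists of probes that the study itself had called between these muscles, and 98.1% of named probes were called here beside 75.2% of the others. That all 4 members were called was therefore nearly fixed by the naming, and only the direction and size of each difference are described.

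RYR1 was far more abundant in LM. In LM its centred log2 level ran from -0.30 to 1.53 with a median of 0.64 over 90 arrays. In SM it ran from -3.84 to -1.73 with a median of -2.93 over the 72 arrays where the spot was well above background. The lowest LM array stood above the highest SM array, so the muscles did not overlap, which held for 1.99% of all probes in the direction of LM. LM averaged 0.59 ± 0.40 (SD, n = 90), against -2.95 ± 0.49 (SD, n = 72) for SM. The log2 difference was 3.54 (SE 0.069, 95% interval 3.40 to 3.68, limma adjusted p = 3.22e-100), a FC ratio of 11.6, and LM was higher in 72 of 72 pigs measured in both muscles. Of the 10987 probes, 2 had a larger log2 difference towards LM. The probe was dim in SM. Its median processed signal was 47.3 there, with 10283 of the 15198 probes brighter, and 770 in LM, with 4632 brighter. On the other 18 arrays of SM the spot was not well above background, and the difference was 3.76 when those spots were used as well. The size depended on the background correction, since it was 2.43 with normexp on the mean signals.

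TRDN was among the brightest probes of the array, with 141 probes brighter in LM and 307 in SM by median processed signal. Its centred log2 level in LM ran from 7.33 to 8.36 with a median of 8.01 over 90 arrays. In SM it ran from 4.95 to 7.51 with a median of 6.58 over 90 arrays. LM was the higher muscle with almost no overlap: 1 array of LM fell below the highest SM array, and 4 of SM rose above the lowest LM array. LM averaged 8.00 ± 0.14 (SD, n = 90), against 6.55 ± 0.48 (SD, n = 90) for SM. The log2 difference was 1.45 (SE 0.053, 95% interval 1.34 to 1.55, limma adjusted p = 1.86e-65), a FC ratio of 2.73, and LM was higher in 90 of 90 pigs. The difference within a pig ran from 0.45 to 3.13 with a median of 1.45.

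CASQ2 went the other way and varied widely among pigs. In LM its centred log2 level ran from -1.59 to 1.94 with a median of 0.0074 over 90 arrays. In SM it ran from -1.14 to 1.76 with a median of 0.52 over 89 arrays. The muscles overlapped over most of their range, and 0.091% of all probes were fully apart in the direction of SM. LM averaged 0.015 ± 0.70 (SD, n = 90), against 0.47 ± 0.58 (SD, n = 89) for SM. The log2 difference, LM minus SM, was -0.46 (SE 0.096, 95% interval -0.65 to -0.27, limma adjusted p = 5.08e-06), a FC ratio of 1.37 towards SM. SM was higher in 66 of 89 pigs, and the difference within a pig ran from -2.64 to 1.68.

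ATP2A2 was moderately higher in LM. Its centred log2 level ran from 1.34 to 3.25 with a median of 2.28 over 90 arrays of LM. In SM it ran from 0.91 to 2.98 with a median of 1.98 over 87 arrays. These ranges also overlapped broadly, with most SM arrays inside the range of LM. LM averaged 2.30 ± 0.34 (SD, n = 90), against 1.95 ± 0.34 (SD, n = 87) for SM. The log2 difference was 0.35 (SE 0.051, 95% interval 0.25 to 0.45, limma adjusted p = 2.54e-10), a FC ratio of 1.27, with LM higher in 69 of 87 pigs. The slow fibre markers that could be named, 3 of 9, did not share this direction. TNNI1 (slow troponin I) and MYL2 (a light chain of slow myosin) were called higher in SM, with log2 differences, LM minus SM, of -0.32 (SE 0.052) and -0.29 (SE 0.069). MYL6B, another light chain of slow myosin, was called higher in SM as well (-0.32, SE 0.093). That call was lost with scan day as a random block (-0.31, limma adjusted p = 0.0584). It was also lost when the index of possible array bias entered the model (-0.13, limma adjusted p = 0.419).

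By absolute log2 difference, RYR1 exceeded 99.97% of all probes, CASQ2 66.9% and ATP2A2 54.3%, while 387 probes lay further towards LM than TRDN. The release channel and its anchor therefore stood far out in the contrast of the muscles, and the slow or cardiac isoforms did not.

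**Figure D1:**
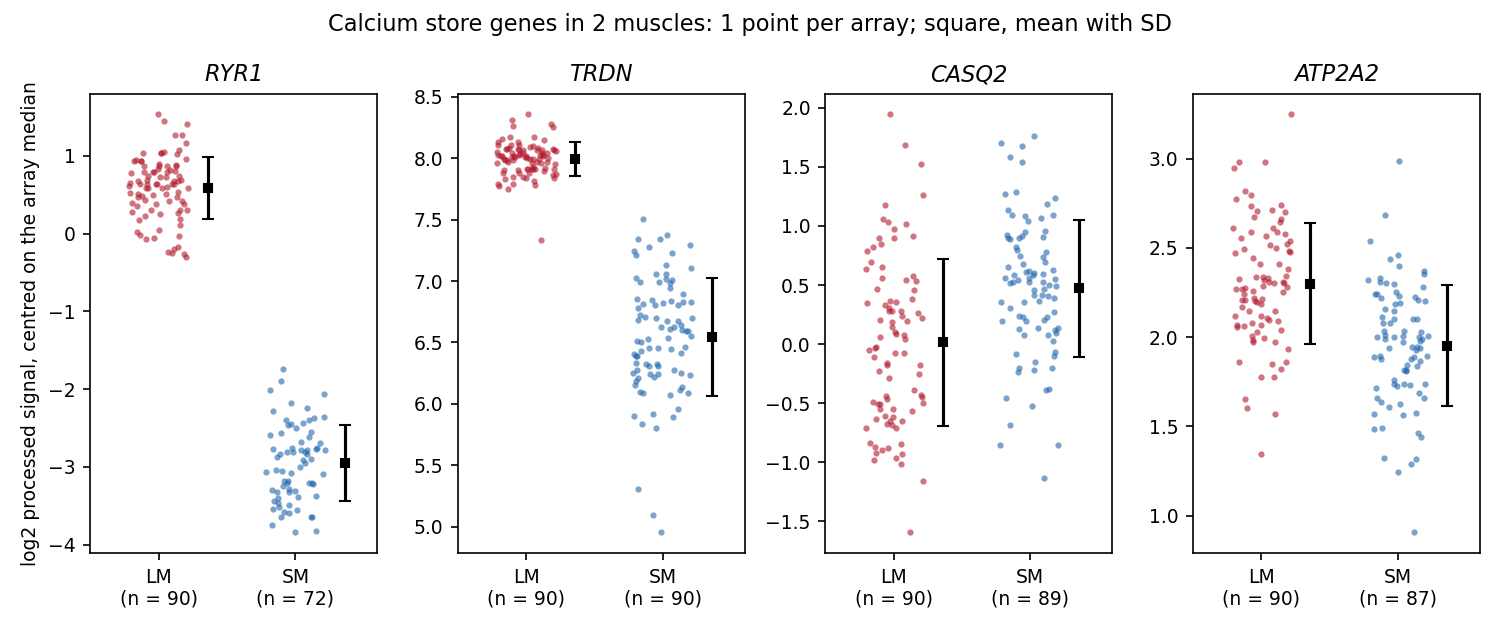
Centred log2 processed signal (vertical axis) of the 4 members in LM and SM, 1 point per array with a usable value, and the mean with its SD as a square with bars. RYR1 shows no overlap, TRDN is tightly packed in LM and spread out in SM, and CASQ2 and ATP2A2 overlap between the muscles.

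The members also differed in how much they varied among pigs. In LM the SD of TRDN was smaller than that of 98.2% of probes, whereas CASQ2 had a larger SD than 96.7% of probes in LM and 94.0% in SM. For TRDN the SD in SM was 3.43 times that in LM, the highest ratio of the 10987 probes, over which the median ratio was 1.02. Permuting the muscles within pigs, a two-sided permutation test chosen after the spread had been seen, gave p = 1e-05, the smallest these permutations can give, and an adjusted p of 4.00e-05 over the 4 members. The ratio did not rest on single arrays: it was 3.72 without the farthest array of each muscle, and the interquartile range was 0.15 in LM and 0.59 in SM. Among the 139 brighter probes kept, the median SD in LM was 0.18 and the median ratio 1.13, and none exceeded 2.21. Whether the high signal of TRDN in LM plays a part in its narrow spread was not tested. No TRDN spot was saturated on any array. For the other members the same test gave ratios of 1.23 for RYR1 and 0.82 for CASQ2 (adjusted permutation p = 0.116 for each) and 1.00 for ATP2A2 (adjusted permutation p = 0.945), none past the threshold.

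A possible array bias was followed through an index. C-rich probes held at least 8 C among bases 1 to 15. From their mean level, that of probes holding at most 2 was subtracted. The probes of RYR1 and TRDN, with 1 and 2 C, were among those subtracted, so the index itself favours a negative r with them. The median of the index was -0.37 in LM and 0.36 in SM, so it differed between the muscles as well as among arrays. Whether its origin is technical was not tested. In SM, TRDN fell as the index rose (r = -0.36, adjusted permutation p = 0.00656 over 16 relations of members with array measures, n = 90; Spearman rho = -0.38, adjusted permutation p = 0.00528), with r = -0.37 without the 2 farthest arrays and -0.41 within chips. In LM the same r was -0.061 (adjusted permutation p = 0.701). The other array measure was the percent of probes well above background. In LM, TRDN fell as it rose by Spearman rho (-0.33, adjusted permutation p = 0.0106). By Pearson r this was not called (-0.23, adjusted permutation p = 0.139), and r was -0.12 within chips. When the index entered the model the muscle difference was 3.46 for RYR1, 1.24 for TRDN, -0.40 for CASQ2 and 0.23 for ATP2A2, and each was still called in the same direction. Differences between chips within a muscle were called by an F test for RYR1 in LM only, where chips accounted for 40.1% of the variance and their means ran from -0.14 to 0.97 (F = 2.73, adjusted p = 0.00542, limma). Such differences were called for 56.6% of probes in LM and 15.1% in SM.

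Correlations among the members were next examined across pigs within each muscle, to ask whether the parts of the store varied together. None of the 12 correlations (6 pairs in both muscles) was called at an adjusted permutation p of 0.05 or less for Pearson r, and 2 had an unadjusted permutation p under 0.05, both in SM and both involving CASQ2. In SM, RYR1 and CASQ2 had r = -0.29 (n = 71, permutation p = 0.0123, adjusted 0.147) and Spearman rho = -0.32 (permutation p = 0.0064, adjusted 0.0769). That r was -0.32 both without the 2 arrays farthest from the median and within chips (adjusted permutation p = 0.0948 and 0.0995), and -0.35 when spots not well above background were used too, where it was called (adjusted permutation p = 0.0104). It was weaker with normexp background correction (r = -0.18, adjusted permutation p = 0.294) and with outlying values kept (r = -0.23, adjusted permutation p = 0.223). TRDN and CASQ2 in SM had r = -0.24 (n = 89, permutation p = 0.0253, adjusted 0.152) and Spearman rho = -0.22 (permutation p = 0.0429, adjusted 0.257), with r = -0.24 without the 2 farthest arrays and -0.26 within chips, and -0.31 when outlying values were kept, where it was called (adjusted permutation p = 0.0404). Of all probes in SM, 2.70% had a lower r with RYR1 than CASQ2 had, but 27.8% had a lower r with TRDN, so that the value of TRDN and CASQ2 was ordinary for TRDN in this muscle. Adjusting for the index of C-rich probes left r = -0.28 for RYR1 and CASQ2 (adjusted permutation p = 0.208) and -0.17 for TRDN and CASQ2 (adjusted permutation p = 0.269).

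In LM the corresponding values had the opposite sign. RYR1 and CASQ2 had r = 0.16 (n = 90, adjusted permutation p = 0.290), 0.25 within chips, and TRDN and CASQ2 had r = 0.20 (n = 90, adjusted permutation p = 0.222), 0.14 within chips. The difference between the muscles was tested directly, by permuting LM and SM within pigs for 34 pairs of a member with another member or a fibre marker, a test added after these signs had been seen. It was called for RYR1 and CASQ2 (r = 0.19 in LM and -0.29 in SM over the same 71 pigs, permutation p = 0.00173, adjusted 0.0280) and for TRDN and CASQ2 (r = 0.24 and -0.24 over 89 pigs, permutation p = 0.00244, adjusted 0.0280). Within chips both were called again (adjusted permutation p = 0.0202 for each). Adjusted for the index of C-rich probes neither was called, with r of 0.19 and -0.28 for RYR1 and CASQ2 (adjusted permutation p = 0.102), and 0.24 and -0.17 for TRDN and CASQ2 (adjusted permutation p = 0.132). RYR1 and TRDN had r = 0.18 in LM and 0.17 in SM, neither called (adjusted permutation p = 0.247 and 0.304). Within chips this pair had r = 0.28 in LM (adjusted permutation p = 0.0995) with Spearman rho = 0.35, which passed the threshold (adjusted permutation p = 0.0334), and r = 0.17 with rho = 0.14 in SM (adjusted permutation p = 0.390 and 0.513). ATP2A2 was close to 0 with every other member, between -0.099 and 0.074.

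Levels in both muscles of a pig were set against each other next. Across pigs, LM and SM had r = -0.048 for RYR1 (n = 72), -0.049 for TRDN (n = 90), 0.16 for CASQ2 (n = 89) and 0.021 for ATP2A2 (n = 87), with adjusted permutation p of 0.849, 0.849, 0.533 and 0.849. Spearman rho was -0.069, 0.036, 0.22 and 0.046, of which only that of CASQ2 had an unadjusted permutation p under 0.05 (0.0388, adjusted 0.155). The median of the same r over all probes was 0.066. Without the 2 pigs farthest from the LM median the 4 values lay between -0.083 and 0.14, and within chips between -0.11 and 0.12. With quantile normalization TRDN turned to r = 0.28 and was called (adjusted permutation p = 0.0318).

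In all, 7 markers of fibre type could be named, 3 of 9 slow ones and 4 of 12 fast ones. The slow markers were MYL2, MYL6B and TNNI1. The fast markers were MYH1 (a fast myosin heavy chain), MYL1 (a fast light chain), PVALB (parvalbumin, a cytosolic calcium buffer) and MYOZ3 (a Z-disc protein). Of 56 correlations of a member with a marker, 9 were called in LM and 7 in SM. All 3 slow markers rose with ATP2A2 in both muscles, and by Pearson r no fast marker was called with it over all arrays. In SM, MYH1 passed by Spearman rho (-0.27, adjusted permutation p = 0.0497, beside r = -0.25, adjusted permutation p = 0.0698), and PVALB passed without the 2 farthest arrays (r = -0.27, adjusted permutation p = 0.0477). ATP2A2 with TNNI1 had r = 0.79 in LM (n = 90) and 0.75 in SM (n = 87), both with permutation p = 1e-05, adjusted 1.12e-04, and Spearman rho of 0.80 and 0.67 (adjusted permutation p = 1.40e-04 for each). Within chips these r were 0.80 and 0.76, and without the 2 farthest arrays 0.76 and 0.71. ATP2A2 with MYL2 had r = 0.60 in LM and 0.76 in SM (adjusted permutation p = 1.12e-04 for each), and 0.55 and 0.78 within chips. With MYL6B it had r = 0.37 in LM (adjusted permutation p = 0.00286) and 0.53 in SM (adjusted permutation p = 1.12e-04), and 0.30 and 0.53 within chips. ATP2A2 thus followed the named slow markers from pig to pig in both muscles. Yet ATP2A2 was called higher in LM, and TNNI1 and MYL2 higher in SM.

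CASQ2, the other slow isoform, was related to slow markers more weakly. In LM it had r = 0.29 with MYL2 and 0.28 with MYL6B (adjusted permutation p = 0.0242 and 0.0282), 0.40 and 0.37 within chips, and without the 2 farthest arrays 0.28 and 0.23, of which the second missed the threshold (adjusted permutation p = 0.102). Spearman rho of CASQ2 with MYL2 was 0.26 and missed it over all arrays (adjusted permutation p = 0.0534). In SM no slow marker was called with CASQ2, and with the fast light chain MYL1 it had r = -0.32 (adjusted permutation p = 0.0121), -0.37 within chips.

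In LM, TRDN was called with 3 of the 4 named fast markers and with no named slow one. With MYL1 it had r = 0.45 in LM and 0.44 in SM (adjusted permutation p = 3.20e-04 and 2.80e-04), and 0.50 and 0.52 within chips. MYL1 was also higher in LM, by 0.87 on the log2 scale (SE 0.053). The other 3 fast markers were higher in SM. Their log2 differences, LM minus SM, were -0.57 for MYH1 (SE 0.030), -0.82 for MYOZ3 (SE 0.039) and -1.22 for PVALB (SE 0.13). With MYH1 in LM r was 0.33 (adjusted permutation p = 0.0121), but 0.22 within chips, where it was no longer called (adjusted permutation p = 0.294). With PVALB TRDN had r = 0.31 in LM and -0.28 in SM (adjusted permutation p = 0.0155 and 0.0301), 0.25 and -0.30 within chips, and 0.25 and -0.21 without the 2 farthest arrays, where neither was called. By Spearman rho (0.20 and -0.22) neither was called, and 21.5% of all probes had a lower r with TRDN in SM. The difference between the muscles in this pair was called (88 pigs, permutation p = 0.00247, adjusted 0.0280), and again within chips (adjusted permutation p = 0.0289), but not after adjustment for the index of C-rich probes (r = 0.31 and -0.21, adjusted permutation p = 0.102). With MYOZ3 in SM r was -0.42 (adjusted permutation p = 4.90e-04), -0.41 within chips, and 5.97% of all probes had a lower r with TRDN there. The difference of this r from the 0.21 of LM missed the threshold (adjusted permutation p = 0.0555). Without the 2 farthest arrays r was 0.0096 in LM and -0.34 in SM, and Spearman rho over all arrays was 0.067 and -0.47. RYR1 was called with MYOZ3 in LM alone (r = 0.29, adjusted permutation p = 0.0242), and not within chips (r = 0.20, adjusted permutation p = 0.260) or by Spearman rho (0.25, adjusted permutation p = 0.0600). Without the 2 farthest arrays it was called with MYL1 in SM instead (r = 0.33, adjusted permutation p = 0.0222), beside r = 0.26 over all arrays, and TRDN with TNNI1 in SM (r = -0.30, adjusted permutation p = 0.0222), beside -0.23.

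**Figure D2:**
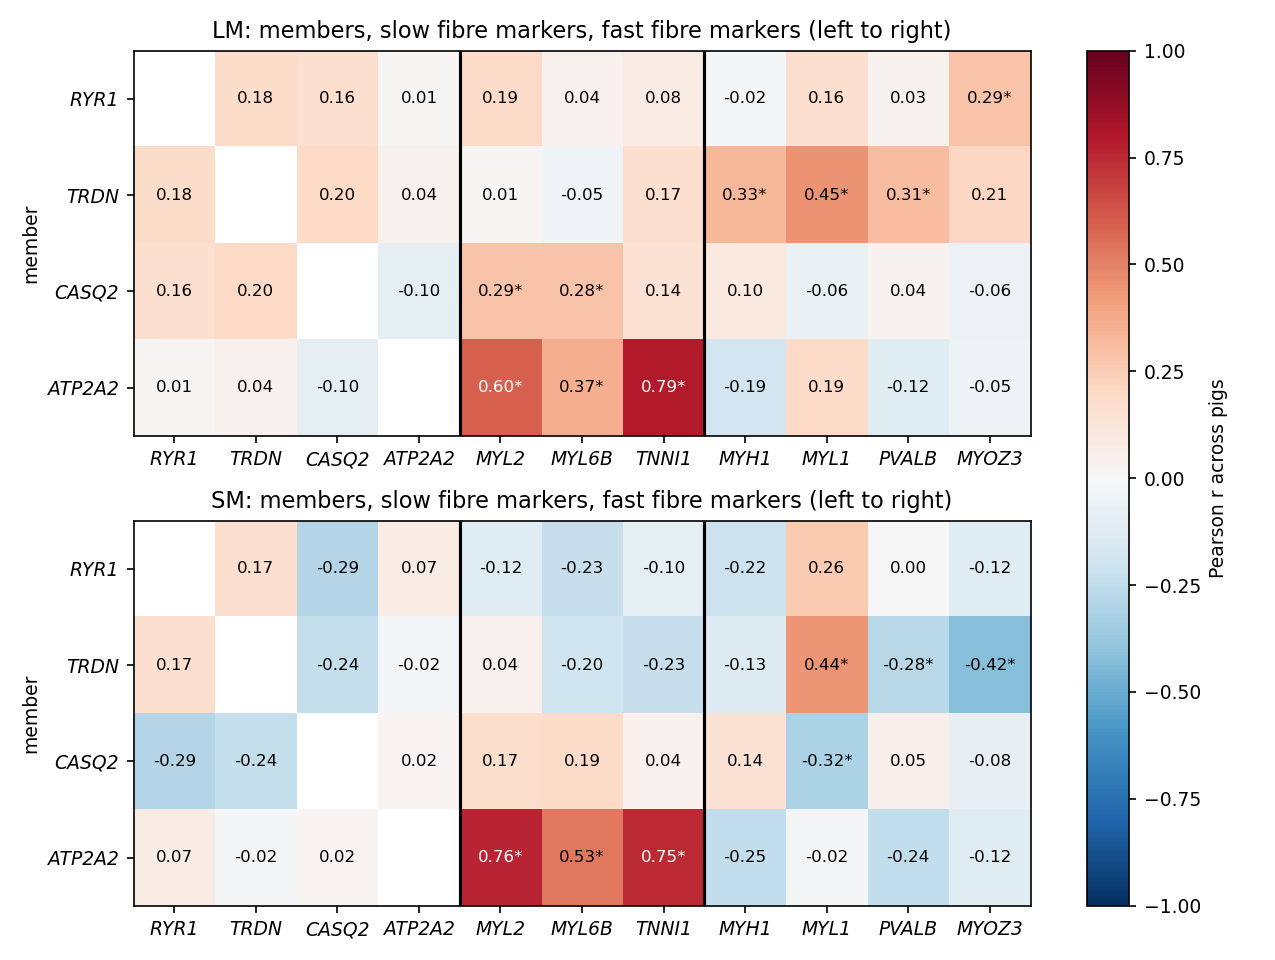
Pearson r across pigs of each member (rows) with the other members and with slow and fast fibre markers (columns), LM above and SM below, on a colour scale from -1 to 1; a star marks an adjusted permutation p of 0.05 or less. The slow markers rise with ATP2A2 in both muscles, and the pairs of CASQ2 with RYR1 and TRDN are positive in LM and negative in SM.

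**Figure D3:**
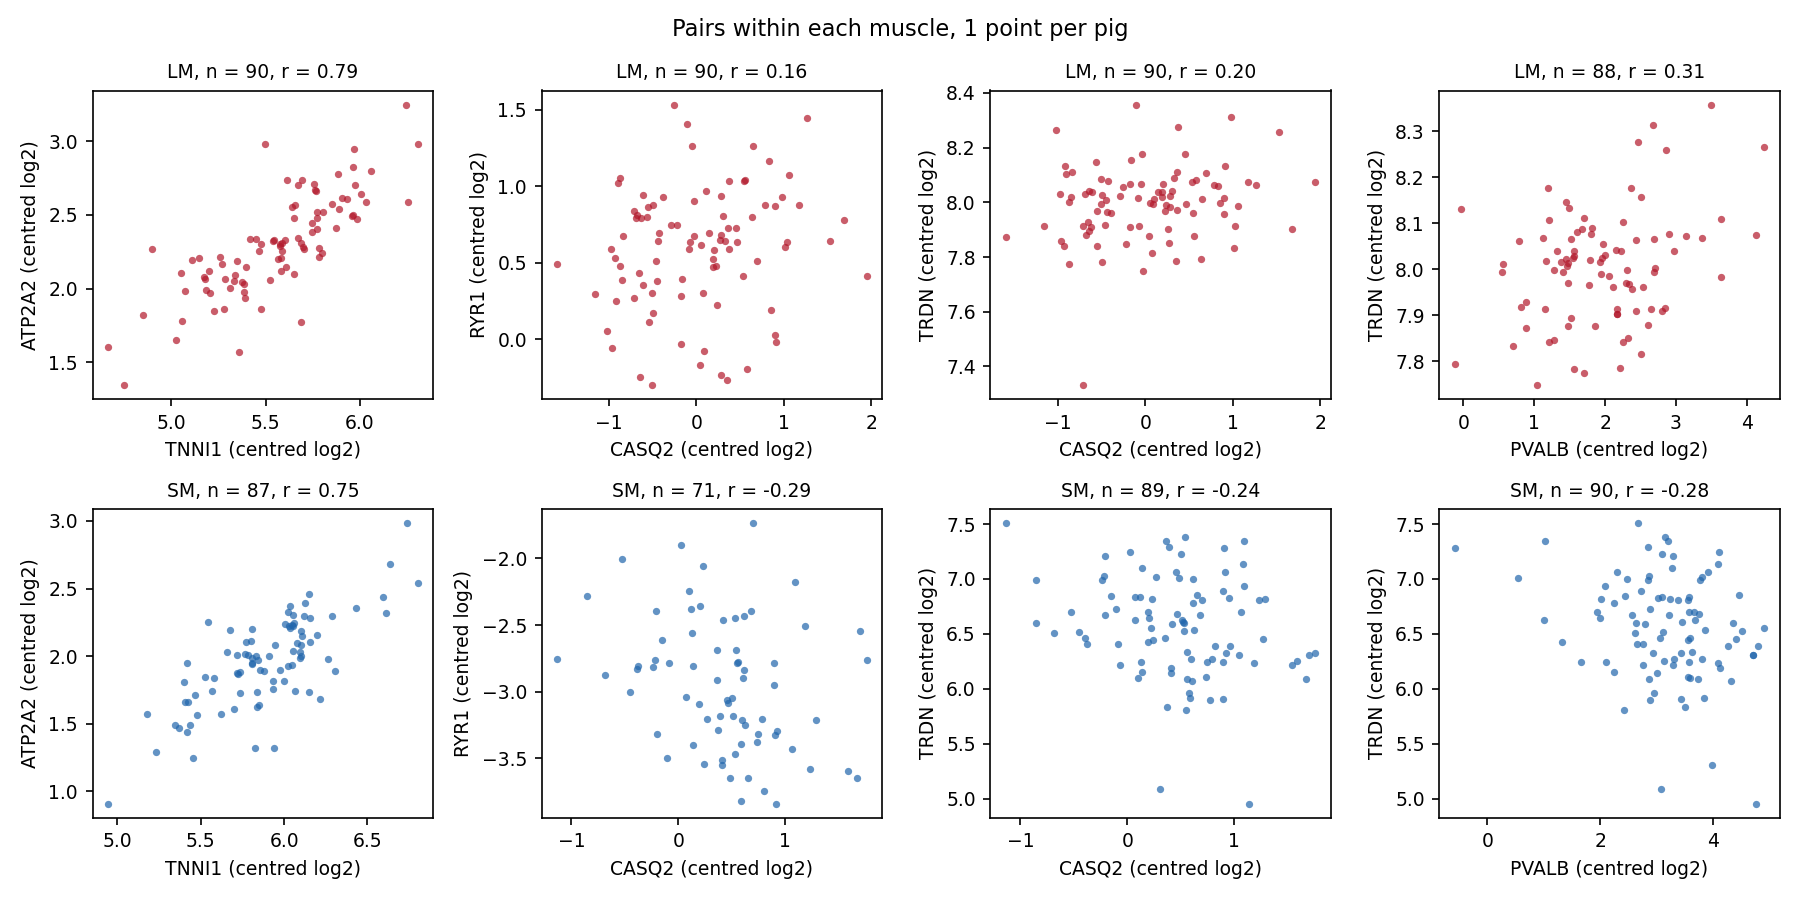
Centred log2 values of 4 pairs of genes in LM (top row) and SM (bottom row), 1 point per pig, with n and Pearson r over each panel. ATP2A2 rises with TNNI1 in both muscles, while RYR1 and TRDN against CASQ2, and TRDN against PVALB, are loose clouds whose r changes sign between the muscles.

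For each member the 3 named probes with the most similar course across pigs were sought, by the mean of the r in LM and the r in SM on values centred within chips, among 3858 named probes with 60 or more usable arrays in each muscle. These are descriptions and carry no test. CASQ2 was closest to MYH8, the perinatal myosin heavy chain (r = 0.56 in LM and 0.69 in SM), MYH3, the embryonic myosin heavy chain (0.46 and 0.68), and TNNT2, the troponin T of heart and embryonic muscle (0.51 and 0.54). All 3 were also higher in SM, with log2 differences, LM minus SM, of -1.31 (SE 0.20), -1.39 (SE 0.21) and -0.73 (SE 0.19).

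ATP2A2 was closest to TNNI1 (r = 0.80 in LM and 0.75 in SM), FANCA, a Fanconi anaemia DNA repair gene (0.70 and 0.62), and MYL2 (0.55 and 0.76). Of these, the pair of slow fibre genes was already among the markers. TRDN was closest to KTN1, which encodes kinectin of the endoplasmic reticulum membrane (0.65 and 0.78), CAPZA2, an actin capping subunit (0.72 and 0.63), and MNAT1, an assembly factor of the CDK-activating kinase (0.45 and 0.85). All 3 were higher in LM, as TRDN was, by 1.51 (SE 0.056), 0.80 (SE 0.045) and 0.95 (SE 0.041) on the log2 scale. RYR1 had no neighbour as close: PDCD5, a gene linked to programmed cell death, had r = 0.46 and 0.44, SLC7A9, an amino acid transporter, 0.50 and 0.38, and PPP1R3B, a subunit that targets protein phosphatase 1 to glycogen, 0.59 and 0.24. Adjusting for the index of C-rich probes left the 24 values between 0.24 and 0.81. The longest run of bases that any of these probes shared with its member was 7.

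A list of 66 symbols for calcium handling held 24 genes that could be named, with 28 probes, the 4 members included. Of these probes, 13 were called higher in LM and 14 higher in SM, beside 35.7% and 47.7% of all probes. Since 98.1% of named probes were called, that nearly all of the list was called followed from the naming. The probe of MTM1, a phosphatase needed for triad formation, was not called (0.12, SE 0.059, limma adjusted p = 0.0621). MTM1 was called higher in LM under 6 alternatives, among them the pig as a block (0.12, limma adjusted p = 0.0219) and the index of C-rich probes in the model (0.46, limma adjusted p = 8.81e-07). The median log2 difference of the list was -0.086 beside -0.068 over all probes. At the surface membrane, the 3 probes of CACNA2D1, the alpha-2/delta-1 subunit of voltage-gated calcium channels, were higher in LM by 0.28, 0.55 and 0.71 on the log2 scale (SE 0.044, 0.041 and 0.043). CACNA1C, the cardiac type channel pore, was higher in LM by 0.39 (SE 0.060), a difference that normexp background correction removed (-0.0033, limma adjusted p = 0.947). CACNB3, a beta subunit, was lower in LM by a log2 difference of -0.53 (SE 0.040), which fell to -0.0019 when that index entered the model (limma adjusted p = 0.969).

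Partners of the release channel went both ways. S100A1, a calcium sensor that binds it, had a log2 difference, LM minus SM, of -1.15 (SE 0.064), whereas CALM3, a calmodulin gene, was higher in LM by 0.37 (SE 0.061), and by 0.71 when the index entered the model. The scaffold genes split, HOMER1 being higher in LM by 0.41 (SE 0.058; 0.13 with normexp correction) and both probes of HOMER2 higher in SM (-0.46, SE 0.048, and -0.44, SE 0.047). CAV3, the muscle caveolin, was higher in SM (-0.71, SE 0.039). None of these moved as far as RYR1 or, towards LM, as far as TRDN.

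Inside the store, both of the other luminal calcium binders that could be named were higher in SM, as CASQ2 was. HRC, which also binds triadin, had -0.65 (SE 0.041) and CALR, calreticulin, -0.72 (SE 0.024). Others on the list, CASQ1 among them, could not be named. Regulators of the pump were split. PLN, phospholamban, which restrains SERCA2, was higher in LM by 0.92 (SE 0.086), and by 0.53 when the index entered the model. Both probes of SRI, sorcin, which modulates release and uptake, were higher in SM (-0.41, SE 0.041, and -0.52, SE 0.043). TMEM38B, a cation channel of the store, was called higher in LM by 0.13 (SE 0.062, limma adjusted p = 0.0404) and lost that call with chip as a random block (limma adjusted p = 0.108).

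Among genes that bind or move calcium elsewhere, PVALB had a log2 difference, LM minus SM, of -1.22 (SE 0.13), SLC8A1, the sodium-calcium exchanger, -0.78 (SE 0.057), ORAI1, the store-operated channel, -0.65 (SE 0.032), and CCDC109A, an older symbol of the mitochondrial calcium uniporter, -0.29 (SE 0.060, and -0.43 when all spots were used). All 4 were thus higher in SM. In LM, ATP2B1, the surface calcium pump, was higher by 0.43 (SE 0.066), and CAMK2G, a calmodulin-dependent kinase, by 0.42 (SE 0.078), of which normexp correction left 0.0094 for CAMK2G (limma adjusted p = 0.874).

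**Figure D4:**
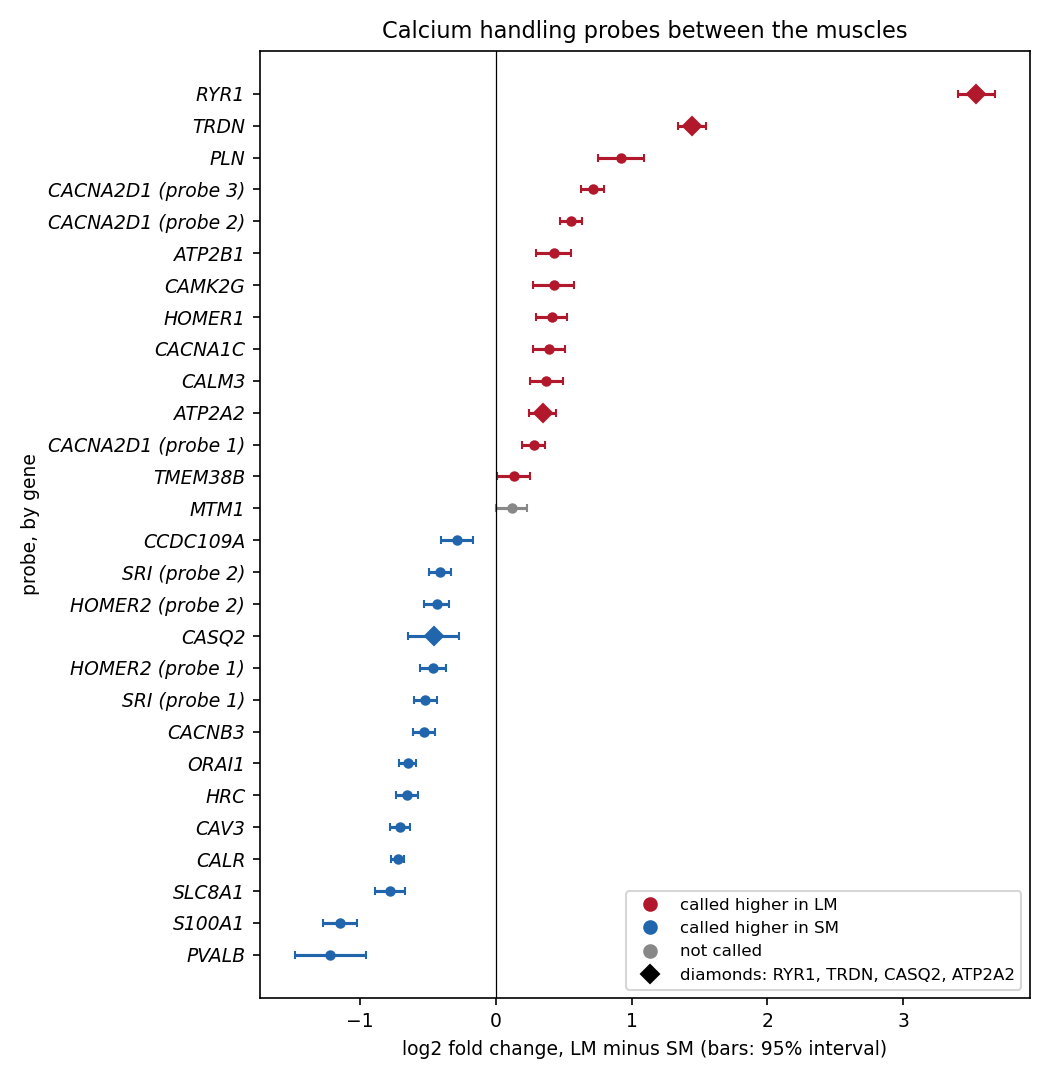
Log2 fold change, LM minus SM, of the 28 calcium handling probes (horizontal axis, bars are 95% intervals), with the 4 members as diamonds. RYR1 at 3.54 and TRDN at 1.45 lie farthest to the right, and PVALB at -1.22 farthest to the left.

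Both muscles were checked against cell type markers. The summed level of 13 probes for 7 of 8 muscle fibre genes ran from 10.4 to 12.0 (median 10.8) on the centred log2 scale in LM. In SM it ran from 10.9 to 11.8 (median 11.4). The brightest of these probes were those of ACTA1, MYH1 and MB, with ACTA1 averaging 8.31 and 9.46 in LM and 9.14 and 10.2 in SM. CKM averaged only 0.079 in LM and -0.22 in SM. By gene, 4 were called higher in LM and 3 in SM. By probe, 9 were called higher in LM, among them all of TTN and NEB, and 4 in SM. Markers of other cell types were mostly higher in SM. The 2 adipocyte genes named of 4, ADIPOQ and PLIN1, had log2 differences, LM minus SM, of -1.26 and -1.13, with summed levels of -2.25 to 3.02 in LM and -1.78 to 3.29 in SM. The 2 endothelial genes of 4, CDH5 and VWF, had -0.58 and -0.50 (summed levels 1.27 to 2.15 and 1.87 to 3.27), and all 4 probes for the 3 smooth muscle genes were higher in SM, with summed levels of 9.00 to 10.7 and 9.44 to 10.5, although the index took ACTA2 from -0.47 and -0.48 to -0.19 and -0.18. Those sums came almost wholly from ACTA2, whose probes averaged 6.69 and 9.27 in LM and 7.16 and 9.74 in SM. MYH11 averaged -2.63 in LM and -0.87 in SM, and TAGLN -2.85 and -1.92. Of 3 leukocyte genes named of 4, CD14 and PTPRC were higher in SM and CD68 in LM (summed levels -0.62 to 1.40 and -0.34 to 1.63), and the 3 probes of HBA2, a haemoglobin gene, were higher in SM (summed levels 3.15 to 10.4 and 4.10 to 7.05, over 1 of 2 blood genes). When the index entered the model, 2 of the 3 HBA2 calls were lost (-0.25 and -0.14, limma adjusted p = 0.139 and 0.179) and the other was -0.34. The call of PTPRC was lost with scan day as a random block (limma adjusted p = 0.100), and that of CD68 with normexp correction (0.013, limma adjusted p = 0.817). Probes of these markers thus gave usable signal in both muscles, which does not by itself show how much of any cell type was present. The part of other cell types in the differences of RYR1, TRDN, CASQ2 and ATP2A2 was not tested.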

How the data were processed

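RNA of LM and SM from each pig was labelled with Cy3 and hybridized, and per the file headers Feature Extraction 9.5.1.1 read 44 arrays of LM, and 9.5.3.1 all others. The deposited scanner output holds a processed intensity on a linear scale, with background subtracted, and other quality marks. The authors also deposited a table on the natural log scale, used as an alternative. Sources differ on the amount of RNA labelled.

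Of 15744 spots, 546 controls were left out. Log2 of the processed signal was centred on the median of the array. Spots that were dim against background, non-uniform or saturated were treated as missing (2.73% of spots of the probes kept), probes with over 50% of these in either muscle were left out, and 7460 values over 3 SD from their probe's mean were removed, which took 1 CASQ2 and 3 ATP2A2 values in SM. The number of arrays, not depth, limits the precision. LM and SM were compared with lmFit and eBayes of limma 3.58.1 (R 4.3.3, statmod 1.5.0) without terms for sex, batch and carcass weight, since the labels hold none of these. P values were adjusted by Benjamini and Hochberg. Tested on simulated data, 94.5% of 200 changed among 10000 probes were called, and 3.57% of calls were of unchanged probes. Correlations used 100000 two-sided permutations in NumPy 2.4.6 under Python 3.11.15, with permutation within chips for values centred on the chip. Samples with the same pig number in the labels are 1 animal, so the pig is a true block.

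Genes were named only through the study's lists of called probes, 1 of which was held in part. Named are the 4 members, the calcium handling and fibre marker genes that could be named, and the 3 probes most like each member. Members, lists and the added tests were chosen with earlier results of these data known. Alternatives were other centrings, background corrections and filters, blocks for pig, chip and scan day, and the index of C-rich probes.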

Additional observations from a re-analysis of the deposited data

Results flagged for a closer look

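In 3 pairs the correlation differed between the muscles by a permutation test of the difference itself, over 34 tested and 8 with an unadjusted permutation p under 0.05. The r in LM minus the r in SM was 0.48 for RYR1 and CASQ2, 0.48 for TRDN and CASQ2, and 0.59 for TRDN and PVALB. Within chips 3 differences were called as well, these same pairs. In SM the index of C-rich probes had r = -0.36 with TRDN, -0.26 with RYR1 and 0.21 with CASQ2, of which only the first was called. The probes of TRDN and RYR1 were among those subtracted in that index. After adjustment for this index, 0 differences were called. The unadjusted permutation p was then 0.00412 for RYR1 and CASQ2, 0.0116 for TRDN and CASQ2, and 0.00598 for TRDN and PVALB, with adjusted permutation p of 0.102, 0.132 and 0.102. Each muscle had its own chips, so a difference between the muscles cannot be told apart from one between sets of chips.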

How the results depend on the processing

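The muscle differences of the 4 members kept their direction and their call under all 13 alternatives each. They ranged from 2.43 to 3.76 on the log2 scale for RYR1, 1.24 to 1.49 for TRDN, -0.58 to -0.38 for CASQ2 and 0.23 to 0.39 for ATP2A2. With the pig as a replicate block they were 3.55, 1.45, -0.45 and 0.35, and 9159 probes were called beside 9169, so the pairing changed no call of a member. Over its 6903 probes, the deposited table gave 6027 calls, of which 3162 were higher in SM, because fewer probes were tested. The count of member pairs called in SM, 0, became 1 when all spots were used (RYR1 and CASQ2, r = -0.35, adjusted permutation p = 0.0104) and 1 when no outlying values were removed (TRDN and CASQ2, r = -0.31, adjusted permutation p = 0.0404). The correlation of TRDN between the muscles of a pig turned from -0.049 to 0.28 with quantile normalization (adjusted permutation p = 0.0318), where Spearman rho was 0.13. The cause was not tested. Over the other settings it lay between -0.11 and 0.036. Each group had over 5 arrays, so single replicates were not left out in turn.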
